A study of Drosophila melanogaster with 12 samples.

Results

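The purine synthesis enzymes described here are the 9 genes Prat, Prat2, Gart, Pfas, Paics, AdSL, AdSS, ras and bur of Drosophila melanogaster. They were found in the deposited count table by their FlyBase symbols or synonyms, without use of their values, and are 9 of the 17494 genes in that table. A count above 0 was found for 8 of the 9 members, and these 8 were among the 7328 genes that passed the filter on low counts and were tested. Prat2 had 0 counts in all 12 libraries.

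The cells were S2 cells, an established Drosophila line of embryonic origin. The treated groups received TMPyP4, a cationic porphyrin known as a ligand of the G-quadruplex, a stacked form of DNA or RNA rich in guanine, at 25, 50 or 100 µmol/L for 48 hours. The control group received the solvent DMSO, which the labels give as 100 µg/L without saying what that value refers to. Each of the 4 groups had 3 libraries of polyadenylated RNA, made with a stranded (dUTP) method, and the labels describe the RNA as mixed with zebrafish RNA. The series asks how a quadruplex ligand changes gene expression, and the comparisons here ask whether the transcripts of this pathway differ with its concentration. The labels do not say that replicates came from separate cultures, so p-values measure the spread between these libraries, which may be technical.

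De novo purine synthesis builds the purine ring stepwise on a phosphoribosyl group, with glutamine, glycine, aspartate and one-carbon units as donors. The product, inosine monophosphate (IMP), is the branch point from which one branch makes AMP and the other makes GMP. Proliferating cells draw on the pathway for nucleic acid synthesis, and in flies it also feeds the pteridine eye pigments through GTP, which is how the genes raspberry (ras) and burgundy (bur) got their names.

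Depth was 4669194 to 9662038 gene counts per library, and the 8 detected members had 158 to 4295 counts each per library. Of 8 hemocyte markers, listed to check this hemocyte-like line, 7 were above 3 counts in some library. Their summed level in CPM (counts per 1000000 counts of the library, scaled with TMM factors) was 1886 to 2154 in DMSO, 1101 to 1264 at 25, 921 to 1508 at 50 and 858 to 1011 at 100 µmol/L. Of these 7, edgeR called 3 lower at 25, 4 at 50 and 5 at 100 µmol/L, where 1.13%, 5.16% and 3.59% of all tested genes were called lower, and called 0 higher. Sr-CI had positive values at 25 and 100 µmol/L (log2 fold change 0.56 and 1.21, adjusted p = 0.640 and 0.151, edgeR). With a block for runs of the numbers that open the sample titles, no gene was called lower at 50 or 100 µmol/L and 8 were at 25 µmol/L. The runs were unevenly spread over the groups. The run of numbers 150 to 174 held no DMSO library, and the run of 54 to 78 none at 50 or 100 µmol/L. Block and treatment were thus partly confounded, here and wherever this block is used below. The part of the hemocyte markers in the members' values was not tested. The germ line markers aub and vas summed to 78.5 to 126 CPM, with at most 6 counts of vas, and NimC1 was the hemocyte marker that stayed at or under 3 counts. Summed markers of neurons, muscle, fat body and ovarian somatic cells stayed at or below 2.30 CPM in every library. In these bulk samples, fewer cells of a kind and less RNA per cell cannot be told apart. Fold changes of all genes moved with exonic length: at 50 µmol/L the shortest of 5 equal bins of genes had a median of 0.24 on the log2 scale and the longest bin, which holds Gart and Pfas, one of -0.49. That longest bin also holds the hemocyte markers Hml, Pxn, srp, vkg and Col4a1. Of its genes, edgeR called 4.75%, 21.7% and 14.2% lower at 25, 50 and 100 µmol/L. The part of length in the marker calls was not tested.

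No tested purine synthesis enzyme passed the test against DMSO at any concentration, with the filter on low counts and all 12 libraries. In 2 of the alternative settings given below, Pfas passed it at 25 µmol/L. The quasi-likelihood test of edgeR with Benjamini-Hochberg adjustment over 7328 genes called 0 members at 25 µmol/L, where it called 1.66% of all tested genes. It called 0 members at 50 µmol/L, against 6.85% of all genes, and 0 members at 100 µmol/L, against 5.17%. DESeq2 also called 0 members in each of these comparisons. At an unadjusted p under 0.05 there were 2 members at 25 µmol/L, Pfas lower and bur higher, beside 15.6% of all tested genes. There were 0 at 50 µmol/L, beside 26.2% of all genes, and 0 at 100 µmol/L, beside 21.8%.

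The fitted fold changes over DMSO ran between 0.782 and 1.23 over the 24 comparisons of a member with DMSO, with standard errors of 0.09 to 0.15 on the log2 scale. All 24 of the 95% intervals lay within a 2-fold change in either direction, and 23 of 24 lay within 1.5-fold. The lowest bound was a log2 fold change of -0.67 for Pfas at 25 µmol/L, a fold of 0.631, and the highest was 0.58 for bur at 25 µmol/L, a fold of 1.49. The adjusted p-values of edgeR ran from 0.251 to 0.959. On the log2 scale the members' median fold changes were -0.015, 0.059 and -0.112 at 25, 50 and 100 µmol/L, beside medians over all tested genes of 0.013, 0.021 and 0.015. A negative value was fitted for 4, 3 and 6 of the 8 members at these concentrations, and for 47.5%, 47.4% and 47.8% of all tested genes.

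**Figure D1:**
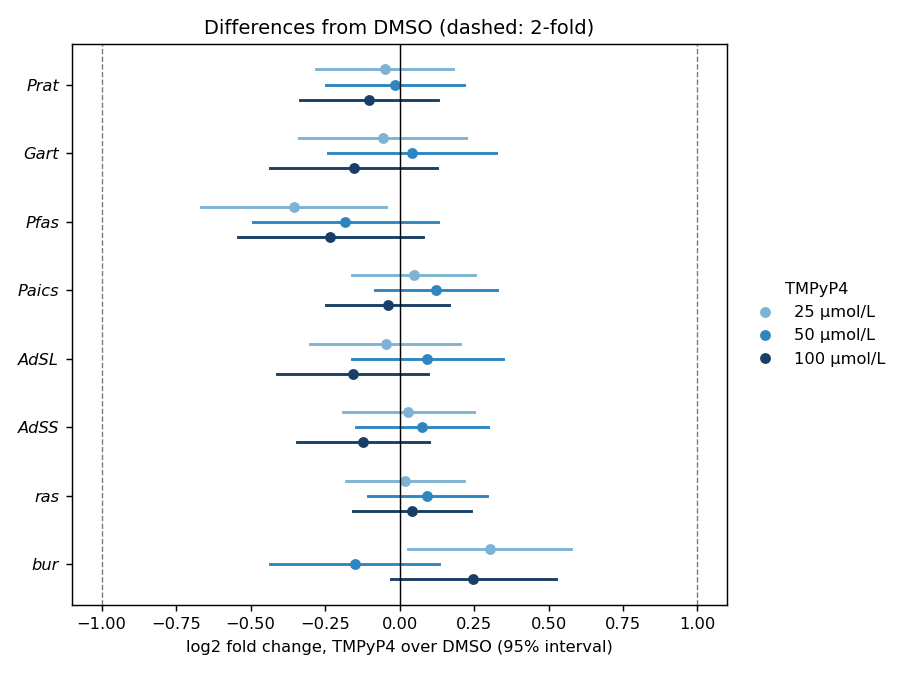
Log2 fold change of each tested purine synthesis enzyme at 25, 50 and 100 µmol/L TMPyP4 over DMSO, from edgeR, as points with 95% intervals as lines; dashed lines mark a 2-fold change. All 24 intervals lie inside the dashed lines, and the intervals of Pfas and bur at 25 µmol/L are the only 2 that leave out 0.

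Summed over the pathway, the 8 detected enzymes made up 1656 ± 123 CPM in DMSO, 1623 ± 111 CPM at 25, 1705 ± 110 CPM at 50 and 1561 ± 26.1 CPM at 100 µmol/L (SD, n = 3 each). The library sums ran from 1518 to 1752 CPM in DMSO, from 1542 to 1750 CPM at 25, from 1606 to 1824 CPM at 50 and from 1532 to 1582 CPM at 100 µmol/L. Every treated group overlapped DMSO in this sum. At 100 µmol/L the overlap rested on DMSO replicate 1 (1518 CPM), as all libraries there lay below DMSO replicates 2 and 3 (1752 and 1699 CPM).

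The pathway opens with amidophosphoribosyltransferase, the committed step, which Prat and Prat2 both encode. Prat (FBgn0004901) lies on chromosome 3R at 7909598 to 7911779 on the minus strand (dm6). It had 101.7, 109.6 and 110.8 CPM in DMSO replicates 1, 2 and 3, and 121, 94.4 and 95.7 CPM at 25 µmol/L. It had 101.6, 101.8 and 115.3 CPM at 50, and 98.2, 95.2 and 106.3 CPM at 100 µmol/L. Its highest and its lowest library were both in the 25 µmol/L group, and no treated group stood clear of DMSO. Relative to DMSO, Prat had log2 fold changes of -0.05, -0.015 and -0.10 at 25, 50 and 100 µmol/L (adjusted p = 0.882, 0.948 and 0.637, edgeR).

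Prat2 (FBgn0041194), on chromosome 3L at 6911999 to 6914876 on the minus strand, had no counted read in DMSO or at any TMPyP4 concentration. A count of 0 allows up to 3 counts in a library, which is 0.315 to 0.731 CPM over the 12 libraries, and such limits cover counting error only. Of the pair only Prat was detected, and no fold change can be given for Prat2.

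Gart encodes a protein with several activities of the ring-building steps. The gene (FBgn0000053) lies on chromosome 2L at 7014623 to 7023898 on the minus strand, and Pcp, a gene inside one of its introns, had at most 5 counts in a library. Gart had 126.5, 153.1 and 149.3 CPM in DMSO, 157.9, 133 and 121.4 CPM at 25, 147.6, 117.7 and 175.3 CPM at 50, and 124.7, 132.4 and 128.3 CPM at 100 µmol/L. The 50 µmol/L group held both its lowest and its highest library, and all treated groups overlapped DMSO. At 100 µmol/L that overlap rested on DMSO replicate 1. Fitted log2 fold changes of Gart were -0.06, 0.04 and -0.15 at 25, 50 and 100 µmol/L, with 95% intervals of -0.34 to 0.22, -0.24 to 0.32 and -0.43 to 0.13.

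Pfas encodes phosphoribosylformylglycinamidine synthase, which uses glutamine as a nitrogen donor. The gene (FBgn0000052) lies on chromosome 2L at 6041181 to 6046050 on the minus strand. It had 226.6, 252 and 282 CPM in DMSO, 248, 173.3 and 173.3 CPM at 25, 227.4, 188.1 and 253.9 CPM at 50, and 219.2, 189.1 and 238.4 CPM at 100 µmol/L. Replicates 2 and 3 at 25 µmol/L were the lowest of the 12 libraries for Pfas, while replicate 1 at that concentration lay inside the DMSO range, so the groups overlapped. Pfas was the member with the lowest fitted value at each concentration: its log2 fold change came to -0.36 (SE 0.15, unadjusted p = 0.027, adjusted p = 0.251, edgeR) at 25, -0.18 (adjusted p = 0.447) at 50 and -0.23 (adjusted p = 0.385) at 100 µmol/L. The mean of the 3 TMPyP4 groups over DMSO gave -0.26 (95% interval -0.51 to -0.01, unadjusted p = 0.0441, adjusted p = 0.185, edgeR). In that comparison edgeR and DESeq2 called 0 members, edgeR called 9.83% of all tested genes, and Pfas was the only member at an unadjusted p under 0.05, beside 25.5% of all genes. Over all tested genes, replicate 1 at 25 µmol/L had Spearman correlations of 0.9864 and 0.986 with replicates 2 and 3, which had 0.9942 with each other. Without replicate 1 at 25 µmol/L the Pfas value at 25 µmol/L was -0.55 with an adjusted p of 0.0404 (edgeR), past the threshold of 0.05. With an offset for gene length the value at 25 µmol/L was -0.23, with an adjusted p of 0.611. The bin of longest genes, to which Pfas and Gart belong, had a median of -0.27 on the same scale.

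**Figure D2:**
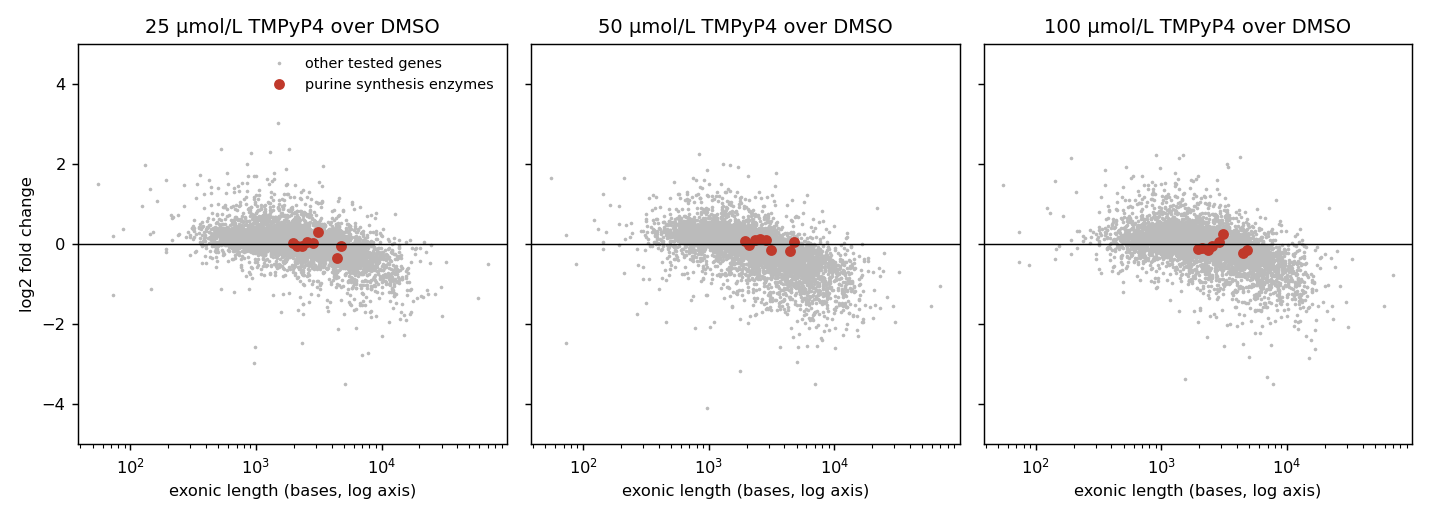
Log2 fold change over DMSO against exonic length (log axis) of all tested genes with a length (grey) and of the purine synthesis enzymes (red), for each TMPyP4 concentration. Grey points fall with length at all concentrations, and the red points of 1951 to 4780 bases lie inside the grey cloud at their lengths.

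Paics encodes a protein that carries the carboxylase and the SAICAR synthetase steps. The gene (FBgn0020513) lies on the X chromosome at 12757036 to 12760617 on the minus strand. It had 463.1, 500.4 and 451 CPM in DMSO, 498.5, 474.4 and 487.9 CPM at 25, 458.2, 560.4 and 521.6 CPM at 50, and 462.5, 467.9 and 445.3 CPM at 100 µmol/L. All treated groups overlapped DMSO. Fitted log2 fold changes were 0.05, 0.12 and -0.04 at 25, 50 and 100 µmol/L, and the widest bounds of the 3 intervals were -0.25 and 0.33.

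AdSL encodes adenylosuccinate lyase, which acts both on the way to IMP and in the AMP branch. The gene (FBgn0038467) lies on chromosome 3R at 17018780 to 17021120 on the minus strand. It had 88.4, 116.6 and 100.7 CPM in DMSO, 104.3, 95.7 and 95.6 CPM at 25, 96.2, 102.1 and 127.5 CPM at 50, and 90.8, 92.8 and 90.5 CPM at 100 µmol/L. The 100 µmol/L libraries lay close together, between 90.5 and 92.8 CPM, and inside the DMSO range. AdSL had log2 fold changes of -0.05, 0.09 and -0.16 over DMSO at 25, 50 and 100 µmol/L (adjusted p = 0.899, 0.645 and 0.494, edgeR).

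AdSS encodes adenylosuccinate synthetase, the first enzyme of the AMP branch. The gene (FBgn0027493) lies on chromosome 3R at 20824667 to 20830580 on the minus strand. It had 273.1, 350.9 and 339 CPM in DMSO, 343.6, 333.8 and 305.8 CPM at 25, 314.7, 347.7 and 352.7 CPM at 50, and 299.8, 288.5 and 296.4 CPM at 100 µmol/L. DMSO replicate 1 was its lowest library, so that the treated groups all lay above the bottom of the DMSO range and overlapped it. AdSS had log2 fold changes of 0.03, 0.08 and -0.12 over DMSO at 25, 50 and 100 µmol/L (adjusted p = 0.931, 0.673 and 0.548, edgeR).

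The GMP branch begins with IMP dehydrogenase, which ras encodes. The gene (FBgn0003204) lies on the X chromosome at 10744502 to 10749097 on the plus strand. It had 193.9, 234.6 and 219.7 CPM in DMSO, 228.6, 216.7 and 210.4 CPM at 25, 220.5, 229 and 241.5 CPM at 50, and 232.9, 214.3 and 220 CPM at 100 µmol/L. It had the narrowest range of the 8 members, 0.32 on the log2 CPM scale over the 12 libraries, and every treated group overlapped DMSO. Over DMSO, ras had log2 fold changes of 0.02, 0.09 and 0.04 at 25, 50 and 100 µmol/L (adjusted p = 0.959, 0.553 and 0.844, edgeR). An overlapping gene on the opposite strand, stx, shares 160 bases of exon with ras and fell at 50 µmol/L, with a log2 fold change of -0.57 (adjusted p = 0.0254, edgeR), and at 100 µmol/L, with -0.58 (adjusted p = 0.0243), 2 calls that the block for title runs did not keep. Whether the counting used the strand is not stated, so reads in those 160 bases, 5.58% of the exonic length of ras, may have been assigned to either gene or to neither. A long noncoding RNA on the same strand shares 154 bases (5.37%) with ras and had at most 3 counts in a library, and Rph shares 21 bases. Other exon overlaps touch Prat (5.89% of its exonic length, with Taf7), AdSS (5.28%), Gart (2.41%) and Pfas (2.32%), and the genes overlapping these 4 had 0 to 208 counts in a library.

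The last member, bur, encodes GMP synthetase, which makes GMP with glutamine as a donor. The gene (FBgn0000239) lies on chromosome 2L at 21174182 to 21179683 on the minus strand, and an antisense RNA that shares 11.4% of its exonic length had at most 2 counts in a library. It had 44.5, 34.8 and 46.8 CPM in DMSO, 47.8, 56 and 52.1 CPM at 25, 39.4, 38.5 and 35.9 CPM at 50, and 53.6, 51.4 and 45.3 CPM at 100 µmol/L. All 3 libraries at 25 µmol/L lay above all 3 DMSO libraries, which held for 10.8% of all tested genes, while the 50 and 100 µmol/L groups overlapped DMSO. For bur the fitted log2 fold change over DMSO was 0.30 (SE 0.13, unadjusted p = 0.0326, adjusted p = 0.268, edgeR) at 25, -0.15 (adjusted p = 0.491) at 50 and 0.25 (adjusted p = 0.286) at 100 µmol/L.

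**Figure D3:**
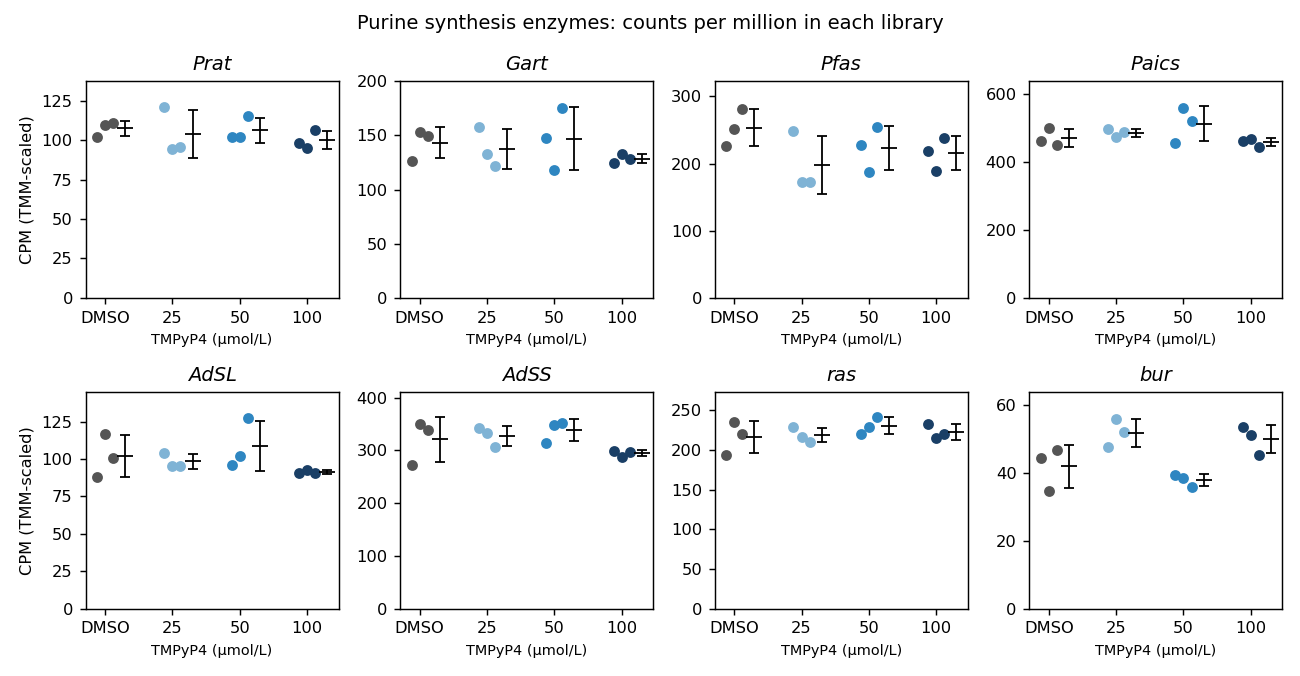
CPM of each tested purine synthesis enzyme in each library, with the mean and SD of each group of 3 beside its points; every vertical axis starts at 0. The 2 lowest points of Pfas are at 25 µmol/L (173.3 CPM each), and the 50 µmol/L libraries of bur (35.9 to 39.4 CPM) lie below its other TMPyP4 libraries but not below its lowest DMSO library (34.8 CPM).

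Among the TMPyP4 groups, AdSS had the largest fitted difference of the members for 100 over 25 µmol/L, a log2 fold change of -0.152, beside -0.055 for bur. For 50 over 25 and for 100 over 50 µmol/L, the largest fitted differences were those of bur. Its 50 µmol/L libraries lay below all 25 µmol/L libraries, which held for 6.77% of tested genes, and the log2 fold change of 50 over 25 µmol/L was -0.45 (SE 0.13, unadjusted p = 0.00352, adjusted p = 0.338, edgeR). Its 100 µmol/L libraries lay above all 50 µmol/L libraries, which held for 6.18% of tested genes, and the log2 fold change of 100 over 50 µmol/L was 0.40 (SE 0.13, unadjusted p = 0.00874, adjusted p = 0.636, edgeR). Neither difference passed the adjusted threshold, and the order of the 4 groups followed no rise or fall with concentration. In the joint test over the 4 groups bur had the smallest p of the members, 0.0111, with an adjusted p of 0.119 (edgeR).

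No member was called between TMPyP4 groups or in the joint test by edgeR or by DESeq2. For 50 over 25 µmol/L edgeR called 0.3% of all tested genes, for 100 over 25 µmol/L 0.205%, for 100 over 50 µmol/L 0.0409% and in the joint test 4.26%. At an unadjusted p under 0.05, bur was the only member for 50 over 25 µmol/L, beside 10.9% of all genes, and the only member for 100 over 50 µmol/L, beside 6.5%. For 100 over 25 µmol/L 0 members had such a p, beside 5.91% of all genes.

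Some members had separate libraries at 100 µmol/L without a called difference. Paics, AdSL and AdSS had all 3 libraries at 100 µmol/L below all 3 at 25 µmol/L, which held for 6.44% of all tested genes, and their log2 fold changes were -0.09, -0.11 and -0.15. AdSL and AdSS also had all 3 libraries at 100 below all 3 at 50 µmol/L, which held for 5.95% of tested genes, with log2 fold changes of -0.25 and -0.20. The adjusted p-values of edgeR for these 5 comparisons ran from 0.758 to 0.934. These comparisons share their 100 µmol/L libraries and are not independent of each other.

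Levels were compared between genes as CPM per kb of exonic length. In DMSO the order was Paics with 184.9 ± 10.1, AdSS with 164.5 ± 21.5, ras with 75.4 ± 7.18, Pfas with 57.2 ± 6.25, Prat with 51 ± 2.35, AdSL with 43.5 ± 6.04, Gart with 29.9 ± 3.01 and bur with 13.5 ± 2.05 CPM per kb (SD, n = 3). Paics and AdSS overlapped over the DMSO libraries, as did Pfas with Prat and Prat with AdSL, so their order is not separated by these replicates. The steps from AdSS to ras, from ras to Pfas, from AdSL to Gart and from Gart to bur had no overlap. By the mean over all 12 libraries, Paics was above 93.8% of the 7263 tested genes with a length and bur above 46.1%.

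Paics, AdSS and ras held the first 3 places and Gart and bur the last 2 in all 4 groups, while Pfas, Prat and AdSL shared the middle. Prat was above Pfas at 25 µmol/L, with 49.3 against 44.7 CPM per kb, and at 50 µmol/L, with 50.5 against 50.3 CPM per kb, but the libraries of the pair overlapped in both groups. Paics and AdSS did not overlap at 25 µmol/L, with 191 and 168 CPM per kb, nor at 100 µmol/L, with 179.8 and 151.2 CPM per kb. The choice of length mattered for the order: per kb of coding sequence in DMSO, AdSL had 70.6, Prat 65.6 and Pfas 62.4 CPM. On that scale Paics led with 366 and AdSS had 239 CPM. Their DMSO libraries then did not overlap, unlike per kb of exonic length.

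**Figure D4:**
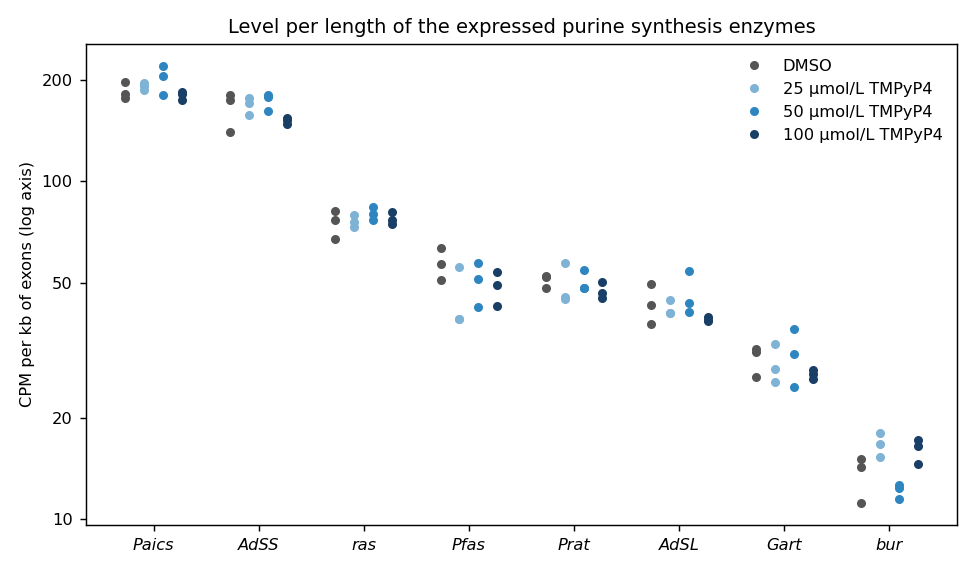
CPM per kb of exonic length (log axis) of the 8 detected purine synthesis enzymes, with 1 point for each library and the groups from DMSO to 100 µmol/L from left to right within a gene. The genes span from about the level of bur (13.5 CPM per kb in DMSO) to that of Paics (184.9), a wider range than the groups of any 1 gene cover.

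On log2 CPM centred on each gene's mean, the root mean square difference from the mean profile of the 8 members over the 12 libraries was 0.0575 for Prat and 0.0581 for ras, the lowest, and 0.178 for Pfas and 0.262 for bur, the highest. The mean profile was lowest in DMSO replicate 1, at -0.10, and highest in replicate 3 of 50 µmol/L, at 0.14, so that its extremes did not fall in the order of concentration. DMSO replicate 1 was the lowest of the 12 libraries for AdSL, AdSS and ras. Over all tested genes it had Spearman correlations of 0.9824 and 0.9865 with DMSO replicates 2 and 3, which had 0.9919 with each other. The tested genes outside the pathway whose profile was closest to this mean were CG12091, CG10565 and Bub3, with differences of 0.0485, 0.0488 and 0.0515, against a median of 0.228 over 7320 genes, which is below the value of bur. The mean profile is nearly flat, so genes that vary little lie close to it, and the members themselves enter it. As these points share library depth and scaling, this likeness is a description of the 12 libraries.

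Genes that feed or use the pathway were taken as 6 lists with 37 genes, of which 31 were tested. In 5 of the lists, nucleotide kinases (5 tested of 6), salvage and breakdown (7 of 11), GTP to pteridines (4 of 4), pyrimidine synthesis (6 of 6) and ribonucleotide reductase (2 of 2), edgeR called 0 genes at every concentration. In these 5 lists the median log2 fold change over DMSO lay between -0.105 and 0.246 at the 3 concentrations. At an unadjusted p under 0.05 these lists held 1 gene at 25, 3 genes at 50 and 3 genes at 100 µmol/L. In the list of precursor and one-carbon supply (7 tested of 8), 1 gene fell at 50 µmol/L, where 5.16% of all tested genes were called lower. At 25 and 100 µmol/L edgeR called 0 of its genes. At an unadjusted p under 0.05 the list held 2 genes at 25, 3 at 50 and 4 at 100 µmol/L, beside the 15.6%, 26.2% and 21.8% of all tested genes given above.

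The gene that fell was Prps (FBgn0036030), which encodes phosphoribosyl pyrophosphate synthetase, the source of the substrate that Prat uses. It was a low-count gene, with 76, 47 and 63 counts in DMSO, 20, 32 and 45 counts at 25, 22, 4 and 8 counts at 50, and 31, 21 and 20 counts at 100 µmol/L. In CPM it averaged 1.99 ± 1.36 at 50 µmol/L and 7.03 ± 1.15 in DMSO (SD, n = 3 each). All 9 TMPyP4 libraries were below all 3 DMSO libraries in CPM, which held for 4.41% of all tested genes. The log2 fold change was -1.75 (SE 0.44, adjusted p = 0.0285, edgeR) at 50 µmol/L, with values of -0.79 (adjusted p = 0.354) at 25 and -1.045 (adjusted p = 0.141) at 100 µmol/L. The call at 50 µmol/L was lost without DMSO replicate 1 (adjusted p = 0.117), without DMSO replicate 3 (0.0616), without replicate 2 (0.135) or replicate 3 (0.128) of 50 µmol/L, with an offset for gene length (0.0652) and with the block for title runs (0.156). The log2 fold change stayed between -2.48 and -1.48 in all 19 alternative settings.

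**Figure D5:**
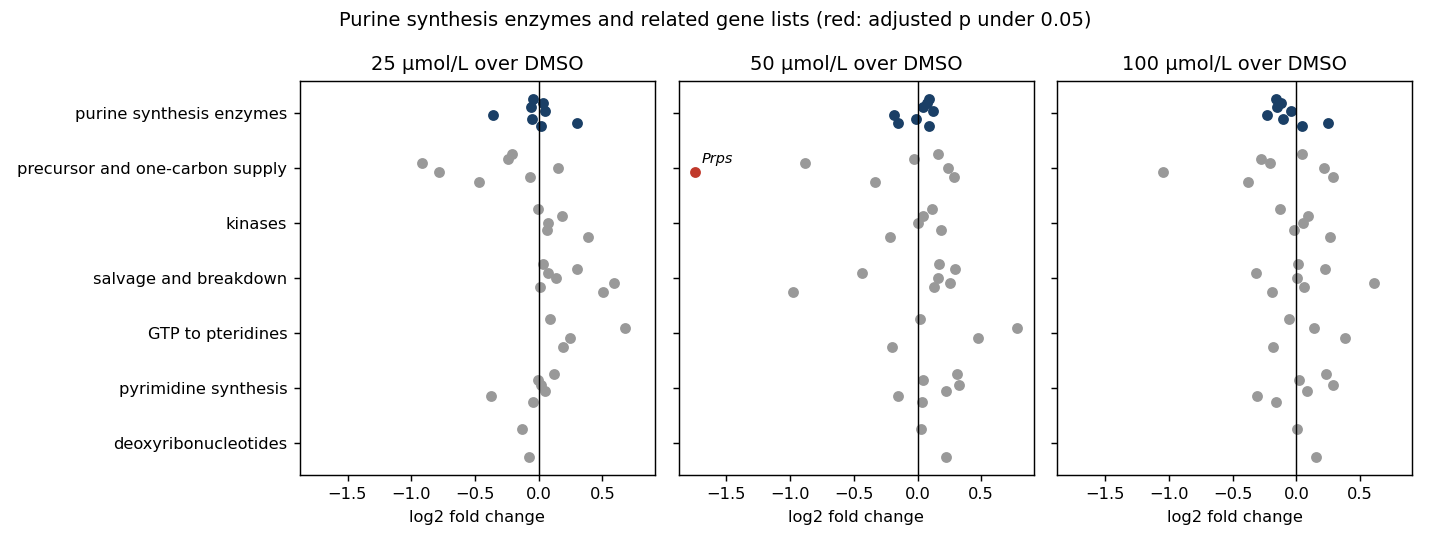
Log2 fold change over DMSO of the purine synthesis enzymes (blue) and of the tested genes of 6 related lists (grey), with 1 point for each gene; red points are past an adjusted p of 0.05 in edgeR. The 1 red point is Prps (-1.75) at 50 µmol/L, and the purine synthesis enzymes stay between -0.36 and 0.30.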

How the data were processed

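The authors deposited raw read counts, not normalised, with a FlyBase gene in each row and 1 column for each of the 12 libraries, per the file headers. Per the submitters' processing notes, FastQC 0.11.8, MultiQC 0.9, HISAT2 2.0.5, SAMtools 1.7, HTSeq 0.9.1 and build dm6 were used. The roles, the annotation and the strand setting of the counting are not given in the sources used here. The 5 entries for reads outside genes (no feature 0.783 to 1.04%, ambiguous 1.87 to 2.71% of all counts of a library; the other 3 at 0) stayed out of library sizes and tests. Columns matched to no sample numbered 0.

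Positions and lengths came from the Ensembl annotation BDGP6.54 (dm6 coordinates). After filterByExpr (10 counts, 15 in total), counts were scaled with TMM and tested in a single fit of all 12 libraries with edgeR 4.0.16 in R 4.3.3 (quasi-likelihood F-test, two-sided, Benjamini-Hochberg over 7328 genes, threshold 0.05). CPM are counts per 1000000 of the TMM-scaled library, and for log2 CPM the prior count was 2. The fit was tested on simulated counts, drawn independently for each library and without an effect of title runs. That test cannot speak to such an effect. Depth was 4669194 to 9662038 gene counts per library, and standard errors for members against DMSO were 0.09 to 0.15 (log2). Alternatives were DESeq2 1.42.0, its size factors, no filter, blocks, a length offset, fits of 2 groups and leaving out each library.

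The members and lists, and the rule that named genes (all members, listed genes past the threshold against DMSO, and the 3 genes closest to the members' mean profile), were chosen with earlier results of these data known. Promoter sequence was not analysed here, and 1 related gene is not reported here.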

Additional observations from a re-analysis of the deposited data

Results flagged for a closer look

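For bur, all 3 libraries at 25 µmol/L were above the DMSO mean and all 3 at 50 µmol/L were below it, a pattern found in 2.22% of all tested genes. The log2 fold change of 50 over 25 µmol/L was -0.45, with an adjusted p of 0.338 in edgeR. The 100 µmol/L libraries of bur were all above that mean, a pattern of 100 against 50 µmol/L found in 1.86% of tested genes, and their log2 fold change over 50 µmol/L was 0.40 (adjusted p = 0.636, edgeR). For Paics, all 25 µmol/L libraries were above the DMSO mean and all 100 µmol/L libraries below it, as in 1.75% of tested genes, and the log2 fold change of 100 over 25 µmol/L was -0.087 (adjusted p = 0.934, edgeR).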

How the results depend on the processing

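No member was past the threshold in any comparison with DESeq2, DESeq2 size factors, a length offset, fits of 2 groups or the block of title runs (4 runs of 3 libraries whose title numbers lie 12 apart, of unstated meaning). With that block only 12, 0 and 1 of 7328 genes were called over DMSO at 25, 50 and 100 µmol/L, so 0 members there says little. Without the filter on low counts 1 member, Pfas, was called at 25 µmol/L over DMSO (-0.38, adjusted p = 0.0417, edgeR), beside 464 of 11464 genes, and 1 for the mean of the TMPyP4 groups over DMSO (-0.27, adjusted p = 0.0483), beside 1079. Leaving out each library gave 0 to 1 members in both comparisons, 1 without replicate 1 of 25 µmol/L, where 200 and 778 of 7430 genes were called. The cause was not tested. Same-numbered libraries had correlations of -0.378 to 0.442, with 6 of 18 over 0.1. For replicate 1 they were 0.442, 0.226 and 0.285 among DMSO, 50 and 100 µmol/L. With replicate 1 of 25 µmol/L those 3 groups had -0.331, -0.378 and -0.148. Correlations of differently numbered libraries were not computed, so these values do not settle whether the numbers pair samples. The labels state no pairing and the main fit used none. The replicate block gave 0 members in every comparison.

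Small fold changes over DMSO changed sign, and larger shifts occurred too. Over the 19 alternative settings, Gart at 50 µmol/L ran from -0.103 to 0.379, beside the 0.042 reported above, and passed the threshold in 0 of them. At 25 µmol/L ras was -0.006 with DESeq2 size factors, -0.004 without a filter and -0.005 in DESeq2. With the title runs as a block, Prat at 50 was 0.028 and Gart at 100 µmol/L 0.088. With the length offset, Gart was 0.09 at 25 and 0.057 at 100, AdSS -0.017 at 25 and Pfas 0.115 at 50 µmol/L. Leaving out 1 library gave, at 25 µmol/L, -0.057 to 0.061 for ras, -0.075 to 0.08 for AdSS, -0.168 to 0.025 for Gart, -0.141 to 0.041 for AdSL and -0.176 to 0.013 for Prat. It gave, at 50 µmol/L, -0.028 to 0.138 for AdSS, -0.103 to 0.17 for Gart, -0.038 to 0.194 for AdSL and -0.077 to 0.019 for Prat, and -0.03 to 0.094 for ras at 100 µmol/L. Over all 19 settings AdSL at 100 µmol/L ran from -0.25 to -0.061 and AdSS from -0.226 to -0.064. Both stayed negative and passed the threshold in 0 settings.

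Depth limits the low genes: Prat2 at 0 counts is bounded at 3 counts per library, and Prps rests on 4 to 76 counts. Counts of calls over all genes changed with these settings too. Over DMSO, edgeR called 122 genes at 25, 502 at 50 and 379 at 100 µmol/L. With the title runs as a block these were 12, 0 and 1, with the length offset 58, 87 and 215, without the filter 464, 1058 and 777, and in DESeq2 245, 766 and 568. Leaving out 1 library gave 6 to 200 at 25, 50 to 1233 at 50 and 89 to 520 at 100 µmol/L.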

Other observations

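Ratios between members within a library were read after their values were seen, and 6 ratios were computed without a test, 3 of which follow. Reads of AdSS per 100 reads of ras numbered 140.9, 149.6 and 154.3 in DMSO, 150.3, 154 and 145.3 at 25, 142.7, 151.8 and 146.1 at 50, and 128.7, 134.6 and 134.7 at 100 µmol/L. The 3 libraries at 100 µmol/L were below the 9 other libraries in this ratio, and how often other gene pairs show this was not computed. Reads of Pfas per 100 reads of Paics numbered 48.9, 50.4 and 62.5 in DMSO, 49.8, 36.5 and 35.5 at 25, 49.6, 33.6 and 48.7 at 50, and 47.4, 40.4 and 53.5 at 100 µmol/L. Reads of bur per 100 reads of ras numbered 23, 14.8 and 21.3 in DMSO, 20.9, 25.9 and 24.8 at 25, 17.9, 16.8 and 14.9 at 50, and 23, 24 and 20.6 at 100 µmol/L. The 50 µmol/L libraries lay below all libraries at 25 and 100 µmol/L and inside the DMSO range. In the 5 ratios other than AdSS to ras, the remaining 3 being Prat to Paics, Gart to Paics and AdSL to AdSS, every treated group overlapped DMSO.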
